A study of Mus musculus with 33 samples.

Results

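Neutrophils carry antimicrobial proteins in granules that form in sequence as the cell matures. Primary granules, which hold myeloperoxidase and neutrophil elastase, form early, at the promyelocyte step. Secondary (specific) granules and the later gelatinase granules form at the myelocyte and metamyelocyte steps, and the transcription factor C/EBPε is required for most secondary granule genes. *S100a8* and *S100a9* encode the paired calcium-binding alarmins that fill the neutrophil cytosol and signal to Toll-like receptor 4 once released. The 10 genes of these later steps described here were taken by symbol from the count tables, 10 of 55376 symbols: the alarmins *S100a8* and *S100a9*, the secondary granule genes *Ngp*, *Ltf*, *Lcn2*, *Camp* and *Cd177*, the collagenase gene *Mmp8*, and *Chil3* and *Retnlg*, which encode a chitinase-like and a resistin-like secreted protein. The members were chosen by their levels in cohort 1, because *S100a9*, *S100a8*, *Ngp*, *Ltf* and *Lcn2* were higher in hematopoietic stem cells (HSCs) after nicotinamide riboside was withdrawn, so their levels in those HSCs are described below without a test.

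Bone marrow cells came from old C57BL/6 male mice, 24 to 29 months of age. O-WT mice were untreated, O-NR mice drank 12 mM nicotinamide riboside (NR, an NAD+ precursor) for 4 to 6 weeks, and O-NR-RC mice had the same treatment followed by 2 months without it. Cohort 2 holds 24 total RNA libraries, 4 O-WT and 4 O-NR in each of 3 cell types: HSCs, CLPs (common lymphoid progenitors) and GMPs (progenitors of granulocytes and monocytes), and cohort 1 holds 9 HSC libraries, of which 2 are O-WT, 4 are O-NR and the remaining 3 are O-NR-RC. HSCs were sorted from lineage-negative, c-Kit-positive cells, with Gr1 and Mac1 among the lineage antigens, and the gates used to sort CLPs and GMPs for RNA are not given in the sources used here. One label field names the GMPs as common myeloid progenitors, while their titles call them GMPs. No source used here states that a library is 1 mouse, so p-values measure the spread between libraries.

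Between 4792380 and 23816042 reads were counted per library. Levels are given as CPM, counts per 1000000 counted reads of that library, and 3 reads corresponded to between 0.126 and 0.626 CPM. The sorted populations carried their defining transcripts. *Hlf*, a stem cell transcription factor, averaged 476 ± 35.4 CPM in HSCs, *Il7r* averaged 280 ± 28.3 CPM in CLPs, and *Mpo*, which encodes myeloperoxidase, averaged 15122 ± 854 CPM in GMPs (SD, n = 8 libraries of cohort 2 each). The libraries also held reads on 1736 olfactory and vomeronasal receptor genes, which blood cells are not known to use. These summed to 1441 to 4494 CPM in HSCs, 2035 to 8004 CPM in CLPs and 832 to 2294 CPM in GMPs of cohort 2. In cohort 1 they summed to 13739 to 14711 CPM in 4 libraries (O-NR 1 and 2, O-NR-RC 2 and 3) and to 4281 to 8731 CPM in the other 5. Their part in the levels of the 10 genes was not tested, and the receptor values are given beside the results below.

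The 10 genes lie on chromosomes 2, 3, 7, 9 and 16 of mm10, and no other gene of the Gencode annotation overlaps any of them. *S100a8* (chr3:90668978-90670035, plus strand) and *S100a9* (chr3:90692632-90695721, minus strand) are neighbours separated by 22.6 kb. *Camp*, *Ngp* (chr9:110419747-110423012) and *Ltf* (chr9:111019271-111042767) lie close together on chromosome 9, with 570.1 kb between *Camp* and *Ngp* and 596.3 kb between *Ngp* and *Ltf*. *Lcn2* (chr2:32384633-32388252, minus strand) has no other gene of the group on its chromosome. The 250 bases before the RefSeq transcription start of *S100a9*, *Ngp* and *Ltf* are shown because these are among the genes that named the group, and because C/EBP factors and PU.1 (encoded by *Spi1*) are known to drive granule genes. Sequences are from RefSeq (GRCm38.p6), 5′ to 3′ on the strand of the gene. Capitals mark matches on either strand to the C/EBP motif TTGCNNAA or to the PU.1 motif GAGGAA, which were searched separately. The windows are chr3:90695722-90695971 for *S100a9*, chr9:110419558-110419807 for *Ngp* and chr9:111019042-111019291 for *Ltf*, and the Gencode models of *Ngp* and *Ltf* begin inside theirs.
S100a9: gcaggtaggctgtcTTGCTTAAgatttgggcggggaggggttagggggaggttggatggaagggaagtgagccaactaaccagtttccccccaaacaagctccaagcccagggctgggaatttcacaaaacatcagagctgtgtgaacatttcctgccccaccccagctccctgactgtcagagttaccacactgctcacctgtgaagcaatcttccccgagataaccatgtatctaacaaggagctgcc
Ngp: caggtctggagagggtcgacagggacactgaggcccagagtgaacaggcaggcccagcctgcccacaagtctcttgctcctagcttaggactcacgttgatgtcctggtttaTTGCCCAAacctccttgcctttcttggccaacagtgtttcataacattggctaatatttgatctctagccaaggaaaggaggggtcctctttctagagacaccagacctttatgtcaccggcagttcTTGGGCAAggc
Ltf: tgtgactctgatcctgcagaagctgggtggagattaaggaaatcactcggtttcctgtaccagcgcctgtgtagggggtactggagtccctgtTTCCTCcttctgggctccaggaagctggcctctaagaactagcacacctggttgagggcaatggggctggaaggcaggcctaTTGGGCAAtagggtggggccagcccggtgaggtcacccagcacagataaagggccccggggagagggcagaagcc
The C/EBP motif was found in 6 of the 10 windows (*S100a9*, *Ngp*, *Ltf*, *Lcn2*, *Mmp8* and *Retnlg*) and in 9.56% of the 32851 RefSeq promoter windows of the same length. *Ngp* held it at 2 positions, beginning 138 and 11 bases before the start. The PU.1 motif was found in 5 windows (*S100a8*, *Ltf*, *Lcn2*, *Cd177* and *Mmp8*) and in 23.3% of all. The windows of *Camp* and *Chil3* held neither run of letters. These are matches of letters and were not measured as bound.

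In HSCs of cohort 2 the group was at low levels. The 10 genes together summed to between 12.8 and 29.9 CPM per library, and *Ltf*, the iron-binding protein lactoferrin, took 25.8% of the summed reads of the group. It had the highest mean CPM of the 10 genes, at 5.19 ± 2.09 CPM (SD, n = 8). *Retnlg* was lowest, with 27 reads over all 8 libraries and none in O-NR 1. Per kilobase of exon, 9 of the genes other than *Retnlg* had medians between 1.44 (*Lcn2*) and 4.81 (*S100a9* and *Camp*) times the mean olfactory and vomeronasal receptor gene of the same library, and *Retnlg* was at 0.63 times that level.

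In CLPs the group was higher, and the libraries fell apart among themselves. *S100a9* ranged from 0.284 to 56.0 CPM in CLPs (median 26.4, n = 8) and from 0.111 to 1.79 CPM in HSCs (median 1.01, n = 8). Its ranges overlapped because of CLP libraries O-NR 3 and O-NR 4, which read 0.284 and 0.927 CPM, while the other 6 CLP libraries lay above every HSC library. *Ngp*, a cathelicidin-related secondary granule protein, ranged from 2.99 to 39.2 CPM in CLPs (median 35.2) and from 0.829 to 2.88 CPM in HSCs (median 2.34), without overlap. *Chil3* also kept the groups apart, at 2.87 to 12.7 CPM in CLPs and 0.388 to 2.49 CPM in HSCs. Those were 2 of the 9 genes that passed the filter on low values (more than 3 CPM in at least 4 of the 24 libraries), and 7.74% of the 22573 genes tested were higher in CLPs without overlap. *Chil3* passed that filter only through its CLP libraries, so its separation is a description. After scaling between libraries, *Chil3* alone of the 9 was without overlap, where 4.56% of all genes were.

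Differences between cell types were tested by quasi-likelihood in edgeR over the 24 libraries, with treatment in the model, and a gene was called at a Benjamini-Hochberg adjusted p-value under 0.05. All 9 genes tested were called higher in CLPs than in HSCs, where 20.2% of all genes were called in that direction. The filter lets in a gene that is high in 1 cell type alone, so this count is a description, and *Retnlg* did not pass it. *S100a9*, *Camp* and *Chil3* passed it only with their CLP libraries, so their differences between CLPs and HSCs are descriptions. *S100a9* differed most, by 4.60 ± 0.51 on the log2 scale (SE, a description), followed by *Ngp* at 3.61 ± 0.40 (SE, edgeR adjusted p = 3.99e-11). *S100a8*, *Chil3* and *Lcn2*, which encodes the siderophore-binding lipocalin 2, differed by 2.80, 2.67 and 2.61. *Ltf* and *Camp*, the mouse cathelicidin gene, differed by 2.11 and 2.10. The smallest differences were those of *Mmp8*, the neutrophil collagenase, at 1.08, and *Cd177*, a surface glycoprotein kept in secondary granules, at 0.90 ± 0.31 (SE, edgeR adjusted p = 0.0144). The median over the 9 genes was 2.61 and that over all genes was 0.13, or 0.25 without scaling. The call of *Cd177* was lost without any one of HSC O-WT 4, HSC O-NR 3, CLP O-WT 4, CLP O-NR 1 or CLP O-NR 2, where its difference was between 0.66 and 0.79. In bulk RNA fewer cells of a type and less RNA per cell cannot be told apart.

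**Figure D1:**
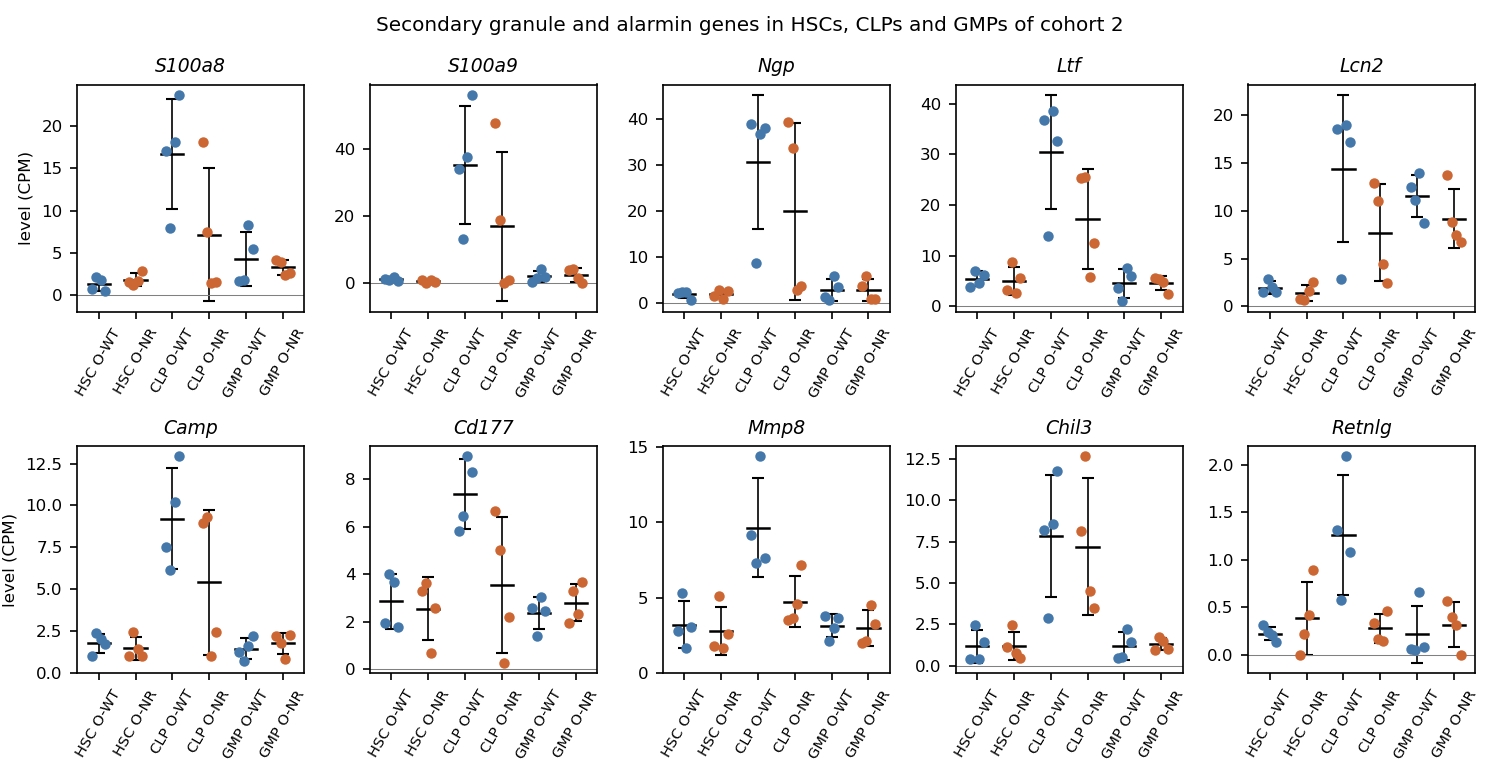
Level of each of the 10 genes in the 24 libraries of cohort 2, in CPM on linear axes that differ between panels. Points are libraries (4 O-WT and 4 O-NR per cell type, side by side), horizontal lines are means and bars are 1 SD, which can reach below 0. The CLP means stand above the HSC means for most genes, and of the 9 genes tested only *Ngp* and *Chil3* keep their libraries apart. O-NR 3 and 4 among the CLPs sit low, and *Lcn2* is also high in GMPs.

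GMPs, which give rise to neutrophils, did not hold most of these genes at the level of the CLPs. *Lcn2* was the clearest exception. It ranged from 6.75 to 13.9 CPM in GMPs (median 9.97, n = 8), from 2.43 to 19.0 CPM in CLPs (median 12) and from 0.665 to 2.85 CPM in HSCs (median 1.52). Its GMP libraries lay above all HSC libraries and within the range of the CLPs, and it supplied 32.4% of the reads of the group in GMPs, against 8.6% in CLPs. *S100a8* ranged from 1.67 to 8.28 CPM in GMPs and *S100a9* from 0.25 to 4.43 CPM, both overlapping HSCs. Of the 9 genes tested, 3 were called higher in GMPs than in HSCs and none lower, where 21% of all genes were called higher. These were *Lcn2* at 2.96 ± 0.30 on the log2 scale (SE, edgeR adjusted p = 1.43e-12), *S100a8* at 1.63 ± 0.37 (edgeR adjusted p = 0.000149) and *S100a9* at 1.60 ± 0.53 (edgeR adjusted p = 0.0103). The call of *S100a9* was lost without GMP O-WT 3 (1.26, edgeR adjusted p = 0.0779) or without GMP O-NR 2 (1.37, edgeR adjusted p = 0.0547). The other 6 had fitted differences between 0.14 (*Ltf*) and 0.89 (*Ngp*), with standard errors from 0.24 to 0.41, and did not pass the test. The median was 0.41 over the 9 genes and -0.28 over all genes, or -0.60 for all genes without scaling. Without scaling between libraries *Ltf*, *Camp* and *Cd177* stood at -0.18, -0.01 and -0.05 instead. Only *Lcn2* was without overlap, where 12.7% of all genes were higher without overlap, or 14.3% after scaling.

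Against CLPs, 7 of the 9 genes were called lower in GMPs, where 43.1% of all genes were called lower. This count too is a description, since *Camp* and *Chil3* were over 3 CPM in CLP libraries alone and passed the filter through them. *S100a9* was over 3 CPM in 6 CLP, 3 GMP and 0 HSC libraries. It too passed only with the CLPs, so its differences from CLPs are descriptions. *S100a9* had a log2 difference of -3.00 ± 0.45 (SE) and *Ngp* one of -2.72 ± 0.38 (SE, edgeR adjusted p = 2.28e-08). *Chil3*, *Ltf*, *Camp*, *S100a8* and *Mmp8* followed with log2 differences of -2.26, -1.97, -1.80, -1.17 and -0.71. The call of *S100a8* was lost with DESeq2 (adjusted p = 0.0536), and that of *Mmp8* with no filter (edgeR adjusted p = 0.0871), with filterByExpr (0.0563) and with the receptor sum as a covariate (0.416). *Lcn2* and *Cd177* did not pass the test, at 0.35 ± 0.26 and -0.61 ± 0.30. The median over the 9 genes was -1.80 and that over all genes was -0.41, or -0.84 without scaling. *Chil3* was the gene whose groups did not overlap in CPM, where 14% of all genes were lower without overlap, and after scaling none of the 9 was, where 6.41% of all genes were.

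**Figure D2:**
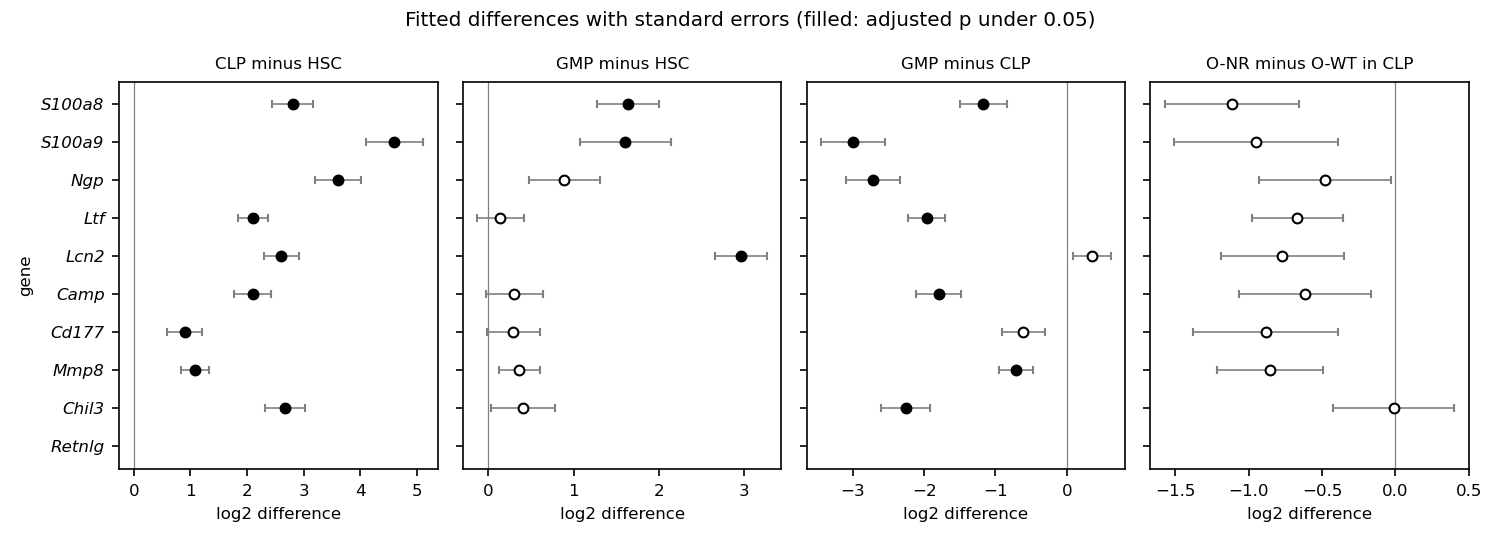
Fitted log2 differences with 1 standard error (bars) for the genes that passed the filter in each comparison, from edgeR. Filled points have an adjusted p under 0.05, which holds for all 9 in CLPs against HSCs, for 3 in GMPs against HSCs, for 7 in GMPs against CLPs and for none in O-NR against O-WT CLPs.

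The primary granule genes, a list of 8 that includes *Mpo*, *Elane*, *Prtn3* and *Srgn*, had another distribution over the cell types. They summed to between 17942 and 20792 CPM in GMPs, 557 to 900 CPM in CLPs and 341 to 396 CPM in HSCs, and all 8 were called higher in GMPs than in HSCs and than in CLPs, where 21% and 26.8% of all genes were. The ratio of the summed primary granule genes to the 10 later genes had a median of 609 in GMPs, 19.8 in HSCs and 5.41 in CLPs. In HSCs that primary granule sum came mainly from *Srgn* and *Prtn3*, so the ratio there says little about the other genes of the list. *Elane*, neutrophil elastase, went from 0.590 ± 0.321 CPM in HSCs to 1660 ± 193 CPM in GMPs (SD, n = 8 each). *Prtn3*, proteinase 3, and *Srgn*, the granule proteoglycan serglycin, were the primary granule genes abundant in HSCs. *Prtn3* (97.1 ± 13.8 CPM in HSCs, SD, n = 8) was called lower in CLPs with a log2 difference of -2.77, opposite to the 9 later genes. *Srgn* also had a lower mean in CLPs than in HSCs (170 and 246 CPM). The rest of the list had higher means in CLPs, among them *Mpo* (353 CPM against 3.77 CPM in HSCs) and *Elane* (20.5 CPM against 0.590 CPM).

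**Figure D3:**
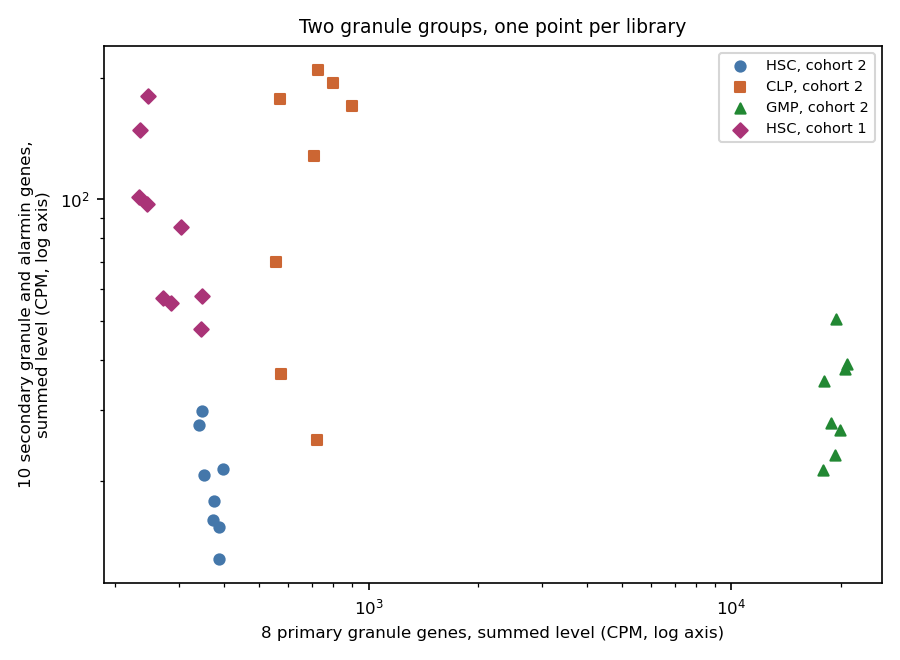
Summed level of the 10 secondary granule and alarmin genes against the summed level of 8 primary granule genes, both in CPM on log axes, with 1 point for each of the 33 libraries. GMPs (triangles) stand between 17942 and 20792 CPM of primary granule genes, while CLPs (squares) hold the highest sums of the later genes and spread from 25.3 to 209 CPM.

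Regulators of granulocyte genes were also measured. C/EBPα and C/EBPε (*Cebpa* and *Cebpe*) averaged 138 ± 16.9 and 44.7 ± 14.7 CPM in GMPs, and 9.44 ± 2.23 and 3.80 ± 1.62 CPM in CLPs (SD, n = 8 each). Of 9 regulators, 8 were called higher in GMPs than in CLPs and none lower, where 26.8% of all genes were called higher and 43.1% lower. In CPM, before scaling between libraries, *Runx1* and *Irf8* had lower means in GMPs (197 and 166) than in CLPs (200 and 191). The count of 8 thus depends on the scaling. *Spi1* averaged 31.9 ± 2.11 CPM in CLPs and 28.0 ± 5.23 CPM in HSCs and was not called between them (edgeR adjusted p = 0.875). Among receptors and partners of the proteins encoded by the group, *Tlr4*, the receptor of the alarmins, was lower in CLPs than in HSCs by a log2 difference of -1.32, and *Slc22a17*, a lipocalin 2 receptor, by a log2 difference of -1.68, while *Pecam1*, the endothelial partner of CD177, was called higher. Of 10 such genes 8 were tested, with 2 called higher and 4 lower in CLPs, where 20.2% of all genes were called higher and 23.9% lower.

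Of 11 other S100 genes, 8 were tested, with 1 called higher (*S100a10*, by 0.48 on the log2 scale) and 4 called lower in CLPs than in HSCs, among them *S100a13* with a log2 difference of -1.04 (20.2% and 23.9% of all genes). *S100a11* was highest in GMPs, at 76.1 ± 5.68 CPM. Close relatives of *Chil3* and *Retnlg* were low, with *Chil4* at 3.52 ± 1.60 CPM in CLPs and *Retn* and *Retnla* at 1.28 ± 1.02 and 0.838 ± 0.504 CPM there (SD, n = 8). Reads that fit *Chil3* and *Chil4* equally well cannot be assigned with certainty, since the handling of such reads is not given in the sources used here.

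Genes of maturing neutrophils and of other blood cells were measured beside the group. None of the 19 mature neutrophil genes found in the tables was at 0 in all CLP libraries, and 1 of them was under 1 CPM in every one. Of the 9 tested, 5 were called higher in CLPs than in HSCs and 2 lower, where the shares over all genes were 20.2% and 23.9%. *Csf3r*, the receptor for G-CSF, was one of the 2 lower, at 23.0 ± 6.67 CPM in CLPs against 125 ± 11.2 CPM in HSCs (SD, n = 8 each). Of 21 other granule genes, 17 were tested, with 10 called higher and 2 lower in CLPs than in HSCs, beside the same 20.2% and 23.9% of all genes. *Lyz2*, lysozyme, was one of the 2 lower, with a log2 difference of -1.40, while *Hp*, haptoglobin, was higher by 1.40 on that scale. The part of any other cell type in the levels of the group was not tested.

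Among the 8 CLP libraries most genes of the group were high in the same ones. Summed over the group, O-WT 1 to 4 held 177, 69.9, 194 and 209 CPM, and O-NR 1 to 4 held 171, 128, 25.3 and 36.8 CPM. The lowest 3 sums were those of O-NR 3, O-NR 4 and O-WT 2. Each of *S100a8*, *S100a9*, *Ngp*, *Ltf*, *Camp*, *Cd177* and *Lcn2* had a Pearson correlation between 0.86 and 0.98 with the mean of the group (a description over 8 libraries, in which each gene is also part of the mean), while *Chil3*, *Retnlg* and *Mmp8* had 0.72, 0.68 and 0.36. The summed receptor genes had a correlation of -0.21 with that mean, and O-NR 3 and 4 held 4780 and 4284 CPM of them. Among genes outside the group *Lyz2* followed the mean most closely (0.99), then *Bmt2*, *Gm19605*, *Lyn* and *Mrpl50* (0.96 to 0.97). These 5 were the closest of 20453 genes over 8 libraries, and the CLP ranking was added after values had been seen. The primary granule genes held 719 and 572 CPM in O-NR 3 and 4 and 557 to 900 CPM over all 8.

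Treatment with NR was compared within each cell type. In CLPs the lowest library was an O-NR one for every gene of the group except *Chil3*. *S100a8* read 17, 7.90, 18.2 and 23.7 CPM in O-WT 1 to 4 and 18.1, 7.53, 1.42 and 1.51 CPM in O-NR 1 to 4. *S100a9* read 33.9, 13.1, 37.6 and 56.0 CPM in O-WT and 47.6, 18.9, 0.284 and 0.927 CPM in O-NR. *Ltf* read 36.7, 13.9, 38.6 and 32.6 CPM in O-WT and 25.3, 25.6, 5.69 and 12.4 CPM in O-NR. For these 3 genes the groups overlapped, with O-WT 2 inside the O-NR range, and the low end came from O-NR 3 and 4. *Mmp8* read 9.17, 7.32, 14.4 and 7.63 CPM in O-WT and 3.51, 3.68, 4.55 and 7.18 CPM in O-NR. It alone of the 9 genes tested was lower without overlap, where 2.29% of 19909 genes were, and it overlapped once libraries were scaled, where 1.06% of all genes were lower without overlap. All 9 fitted differences were below 0, from -1.11 ± 0.46 (*S100a8*) to -0.01 ± 0.41 (*Chil3*), with a median of -0.77 against -0.0048 for all genes. None was called by edgeR after adjustment (adjusted p = 1 for each to 3 digits), and 0% of all genes were called. An unadjusted p under 0.05 was reached by 3 of the 9 genes, *S100a8*, *Mmp8* and *Ltf*, and by 3.21% of all genes. DESeq2 called none of the 9 and 0 genes in all.

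In HSCs of cohort 2 only *Ltf* and *Cd177* passed the filter for the treatment comparison, since the other 8 genes were over 3 CPM in too few libraries. *Ltf* read 3.80, 7, 4.64 and 6.22 CPM in O-WT and 3.11, 8.76, 2.55 and 5.48 CPM in O-NR, which overlap, with a fitted log2 difference of -0.10 ± 0.38 (SE, edgeR adjusted p = 0.995). *Cd177* differed by -0.12 ± 0.49. In GMPs 5 genes passed, with log2 differences from -0.39 ± 0.45 (*S100a8*) to 0.03 ± 0.63 (*Ngp*). *Lcn2* read 12.5, 11.1, 13.9 and 8.76 CPM in O-WT GMPs and 13.7, 8.78, 7.52 and 6.75 CPM in O-NR GMPs, and the ranges overlap at a log2 difference of -0.36 ± 0.22 (SE, edgeR adjusted p = 0.997). None of these genes was called in either cell type, by edgeR or by DESeq2, and none had an unadjusted p under 0.05. EdgeR called 0% of all genes in both, with 4.06% in HSCs and 4.83% in GMPs at an unadjusted p under 0.05, while DESeq2 called 7 and 10 genes. The difference in the NR effect between cell types was tested for 9 genes as an interaction, and none was called for any pair. The largest was that of *S100a8* between CLPs and HSCs, at -1.85 ± 0.72 on the log2 scale, where 0.00443% of all genes were called.

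In HSCs of cohort 1 the 10 genes had sums between 47.8 and 181 CPM, above the 12.8 to 29.9 CPM of cohort 2. The 2 cohorts were not tested against each other, and cohort 1 also held more reads on receptor genes. *S100a9* read 1.74 and 5.32 CPM in O-WT, 3.03, 2.97, 2.13 and 0.691 CPM in O-NR, and 6.68, 11.8 and 18 CPM in O-NR-RC. All 3 O-NR-RC libraries were above all 6 others. *S100a8* read 2.04 and 4.59 CPM in O-WT, 4.39, 6.07, 2.66 and 2.03 CPM in O-NR, and 4.03, 9.55 and 11.1 CPM in O-NR-RC, with O-NR-RC 1 inside the range of the other groups. *Ngp* read 6.30 and 12.4 CPM in O-WT, 8.59, 10.4, 6.97 and 5.25 CPM in O-NR, and 8.65, 20.4 and 26.5 CPM in O-NR-RC. *Ltf* read 13.7 and 19.6 CPM in O-WT, 22.3, 20.6, 13.6 and 11.6 CPM in O-NR, and 14.3, 34.5 and 48.7 CPM in O-NR-RC. *Lcn2* read 4.92 and 5.10 CPM in O-WT, 7.23, 5.69, 3.19 and 3.09 CPM in O-NR, and 3.74, 10.3 and 13 CPM in O-NR-RC. For *Ngp*, *Ltf* and *Lcn2* too, O-NR-RC 2 and 3 were the highest of the 9 libraries and O-NR-RC 1 was not.

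**Figure D4:**
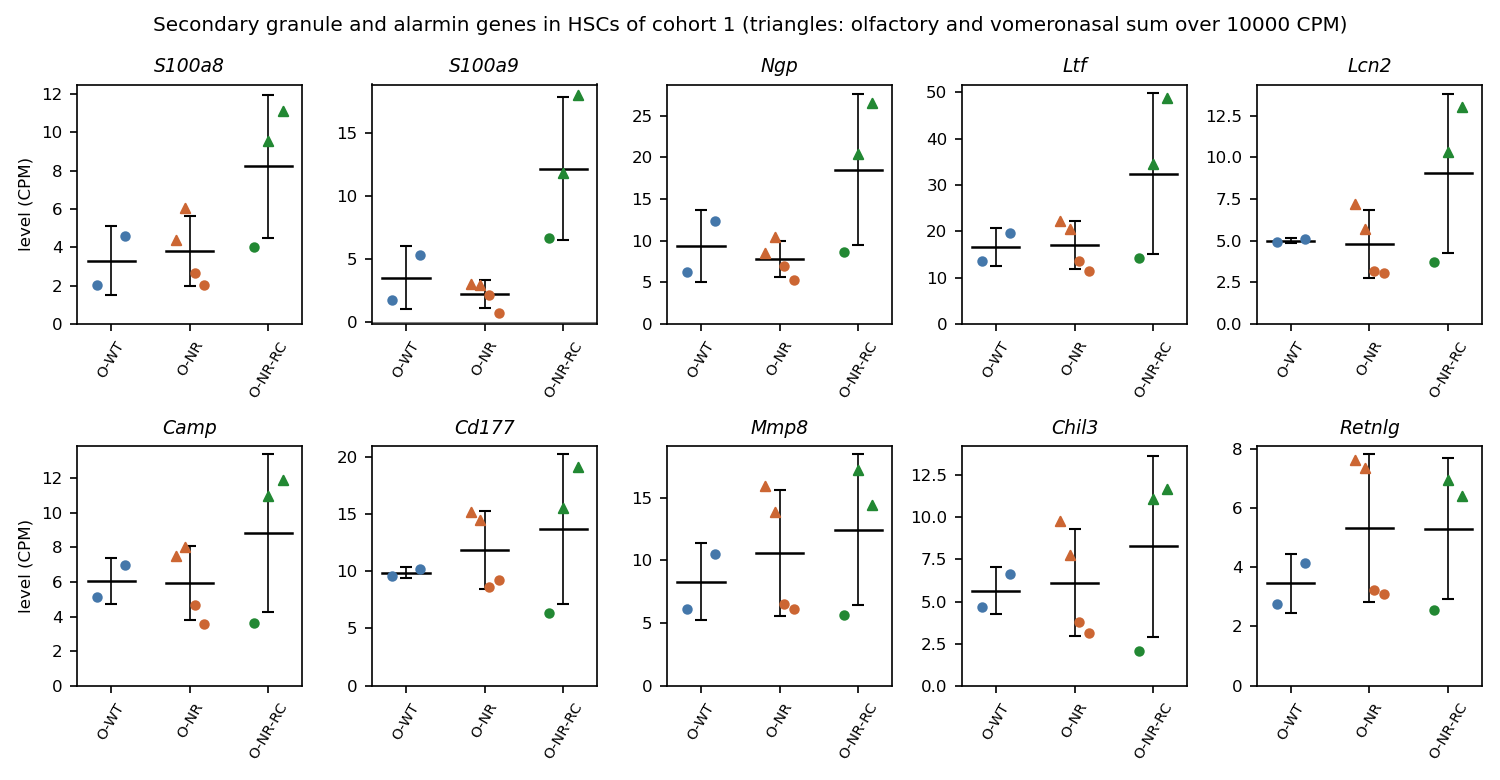
Level of each of the 10 genes in the 9 HSC libraries of cohort 1, in CPM on linear axes that differ between panels (O-WT on the left, O-NR in the middle, O-NR-RC on the right), with means as lines and 1 SD as bars. Triangles are the 4 libraries with over 10000 CPM of receptor genes. *S100a9* is the panel in which all 3 O-NR-RC libraries stand above the rest, while for *Cd177*, *Mmp8*, *Chil3* and *Retnlg* the triangles are high in both O-NR and O-NR-RC.

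The fitted differences between O-NR-RC and O-NR, which chose the genes and carry no test here, were 2.40 ± 0.37 for *S100a9*, 1.09 ± 0.23 for *Ngp*, 1.02 ± 0.29 for *S100a8*, 0.78 ± 0.23 for *Ltf* and 0.77 ± 0.24 for *Lcn2* (log2, SE). The other 5 genes, which the choice did not name as higher, had differences of 0.41 (*Camp*), 0.25 (*Chil3*), 0.13 (*Mmp8*), 0.05 (*Cd177*) and -0.10 (*Retnlg*). Over all 33350 genes edgeR called 0% in this comparison, with 0.291% at an unadjusted p under 0.05, and DESeq2 called 2 genes. *S100a9* was without overlap in CPM (0.663% of all genes) and *S100a8*, *S100a9*, *Ngp* and *Ltf* were after scaling (0.804% of all genes), which the choice of the genes used, so nothing is read from these shares. Within the 4 libraries rich in receptor reads, 2 of each group, the log2 differences were 2.23 for *S100a9*, 1.21 for *Ngp*, 0.87 for *S100a8*, 0.89 for *Ltf* and 0.80 for *Lcn2*. Within the other 5, where O-NR-RC 1 was the single library of its group, *S100a9* and *S100a8* stood at 2.48 and 0.99, while *Ngp*, *Ltf* and *Lcn2* stood at 0.71, 0.38 and 0.45. The median of the 10 genes was 0.59 over all libraries, 0.64 in the first subset and 0.21 in the second.

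Relative to the receptor genes of the same library, per kilobase of exon, the levels in the same libraries were as follows, again as a description of values that the choice used. *S100a9* stood at 8.80 to 17.1 times the mean receptor gene in O-NR-RC, 1.40 to 3.76 times in O-NR and 3.11 to 6.67 times in O-WT. *Ngp* stood at 6.48 to 9.45 times in O-NR-RC, 2.90 to 5.26 times in O-NR and 4.81 to 6.63 times in O-WT, so O-WT overlapped O-NR-RC. *Lcn2* also overlapped O-WT, at 1.53 to 2.02, 0.90 to 1.25 and 1.27 to 1.75 times in the same order. *S100a8* and *Ltf* did not, at 5.34 to 7.75, 2.61 to 3.64 and 2.74 to 4.33 times for *S100a8*. For *Ltf* the values were 3.89 to 5.73, 2.48 to 3.64 and 3.70 to 3.72 times. For *Cd177*, *Mmp8* and *Chil3* these ratios overlapped between O-NR-RC and O-NR, at 2.12 to 3.00 against 2.12 to 3.44 times for *Cd177*. The ratio of *S100a9* to *S100a8* CPM was 1.24 to 1.66 in O-NR-RC, 0.34 to 0.80 in O-NR and 0.85 to 1.16 in O-WT. In HSCs of cohort 2 it was 0.44 to 2.00 in O-WT, which includes the O-NR-RC values, and 0.09 to 0.72 in O-NR. Those ratios rest on few reads, 86 of *S100a9* and 133 of *S100a8*. Over the 8 CLP libraries of cohort 2 the ratio ran from 0.20 (O-NR 3) and 0.62 (O-NR 4) to 2.63, with a median of 2.03. It so spanned the values of all 3 HSC groups of cohort 1.

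**Figure D5:**
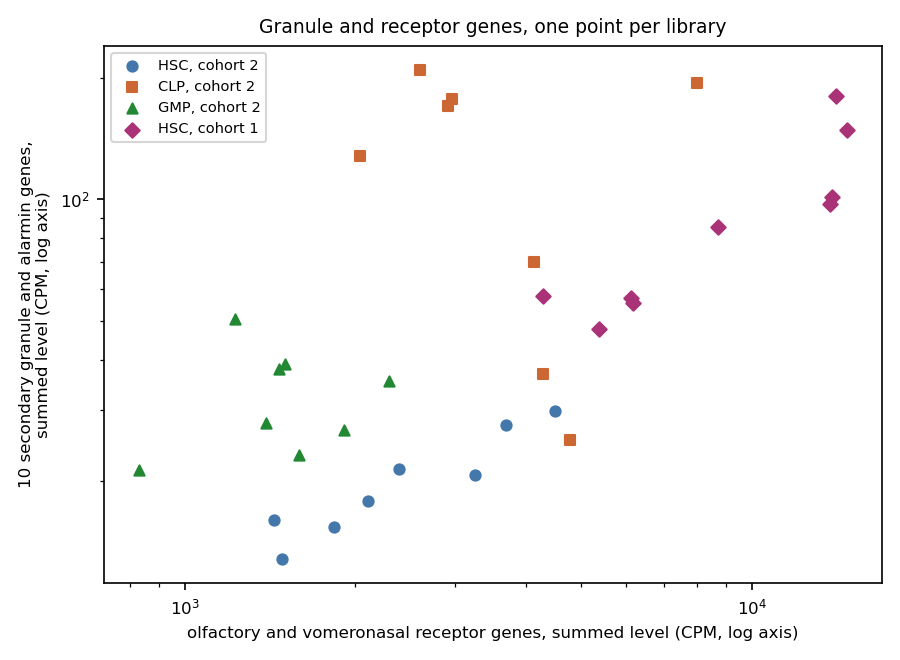
Summed level of the 10 secondary granule and alarmin genes against the summed level of 1736 olfactory and vomeronasal receptor genes, both in CPM on log axes, with 1 point for each of the 33 libraries. In HSCs of both cohorts (circles and diamonds) the 2 sums are high in the same libraries, while CLPs (squares) reach 209 CPM of the group at 2602 CPM of receptor genes.

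Over the 17 HSC libraries, centred within each cohort, the summed receptor genes had a Pearson correlation of 0.86 with the mean of the group, and *Chat*, *Galnt15*, *Gm9921*, *Synj2* and *Hand2os1* followed it most closely of 24308 genes (0.93 to 0.95). Over the 8 GMP libraries the closest of 13344 genes were *Thada*, *Nav2*, *Lrpprc*, *Gm49308* and *Mgam* (0.94 to 0.97), and the receptor sum had 0.32. These are descriptions over libraries that share depth and preparation, and the lists for HSCs and GMPs have no gene in common with that for CLPs.

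Between O-NR and O-WT HSCs of cohort 1 the 10 genes had log2 differences from -0.86 ± 0.43 (*S100a9*) to 0.41 ± 0.30 (*Retnlg*) and a median of -0.13, and 4 of the 10 were above 0. Against O-WT, O-NR-RC stood above 0 for all 10 genes, from 0.14 (*Chil3*) to 1.54 (*S100a9*), with a median of 0.41 that was -0.08 in the 5 libraries with fewer receptor reads. Both comparisons share libraries with the one that chose the genes. Lists of other genes were also drawn up with earlier results of these data known. Between O-NR-RC and O-NR their medians were 0.20 for 7 primary granule genes and -0.05 for 16 mature neutrophil genes. They were 0.00025 for 19 other granule genes and 0.07 for 9 regulators. Erythroid genes had a median of 0.41 and the B and plasma cell gene *Ighm* a difference of 3.72 with O-NR-RC 3 highest, and the part of such cells in the levels of the group was not tested.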

How the data were processed

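Total RNA libraries (SMARTer stranded pico kit) were aligned by the authors with STAR to mm10 with Gencode M22 genes, and the deposited values are raw counts of reads per gene symbol from featureCounts. The strand setting and the handling of multi-mapping reads are not given in the sources used here. From these, CPM was computed over all counted reads of a library. Differences were fitted with edgeR 4.0.16 (quasi-likelihood, TMM scaling, R 4.3.3) on genes over 3 CPM in a number of libraries equal to the size of the smaller group or more, with Benjamini-Hochberg adjustment over all genes tested. The fits were tested on simulated data. Exons and positions come from Gencode (mm10), promoters from RefSeq.

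The members and lists were chosen with earlier results of these data known. Named were all 10 members, up to 4 most abundant genes of each other list, any regulator, near copy or receptor, and the 5 genes most correlated with the members' mean in GMPs and in HSCs. The values of 1 listed gene and a sum that rests on it are not reported here. No library was dropped, since every pair of replicates differed by more than counting noise. In cohort 1 the chi-square per degree of freedom was 1.91 between O-NR 1 and 2 and 3.65 between O-NR 3 and 4. It was 48.6 to 66.8 between libraries of those 2 pairs. O-NR-RC 1 differed from O-NR-RC 2 and 3 by 92.7 and 66.8, and O-NR-RC 2 from 3 by 3.76. Alternatives were DESeq2 1.42.0, upper quartile scaling, other filters, 1 model over 24 libraries, O-WT alone, a replicate block and leaving out each library. A receptor covariate, no scaling and a split at 10000 CPM of receptor genes were chosen after seeing the data.

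The cohort 2 table names carry 8 numbers, each shared by the HSC, CLP and GMP library of 1 treatment and replicate, so cell types may be paired by mouse. The values did not show such pairing, since 6 of 24 pairs of same-numbered libraries of different cell types correlated over 0.1, with a median of 0.01. Same-numbered O-WT and O-NR libraries share a number alone.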

Additional observations from a re-analysis of the deposited data

Results flagged for a closer look

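In 70 checks of a gene in a group of 4 libraries, 4 values stood apart from the other 3 libraries of their group by Dixon's criterion, and chance gives about 1 in 20 such groups. *Ngp* was lowest in HSC O-WT 4 of cohort 2, at 0.829 CPM, against 2.25 to 2.49 CPM in the other O-WT HSC libraries. In CLPs, O-WT 2 was lowest for *Ngp*, at 8.76 CPM against 36.7 to 38.8 CPM, and for *Lcn2*, at 2.87 CPM against 17.2 to 19.0 CPM. *Retnlg* was highest in GMP O-WT 3, at 0.663 CPM, against 0.0549 to 0.0851 CPM in the other O-WT GMP libraries.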

How the results depend on the processing

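The number of the 9 genes called stayed between 8 and 9 for CLPs against HSCs, 6 and 8 for GMPs against CLPs, and 2 and 4 for GMPs against HSCs over the alternatives and over leaving out each library. With the replicate block, 1 gene was called between O-NR and O-WT CLPs (*S100a9*, log2 difference -1.71, edgeR adjusted p = 0.00356). The numbers did not pair the treatments (4 of 12 pairs correlated over 0.1), and the block changed none of the cell type counts. *S100a9* in GMPs against HSCs lost its call with upper quartile scaling (1.47), the receptor covariate (0.86), O-WT alone (1.18) and no scaling (1.34), and *S100a8* in GMPs against CLPs with DESeq2 (-1.01). *Mmp8* in GMPs against CLPs lost it with no filter (-0.52), filterByExpr (-0.54) and the covariate (-0.37), and *Cd177* in CLPs against HSCs with filterByExpr (0.73). Calls were gained in GMPs against HSCs by *Ngp* with no filter (1.04) and without CLP O-NR 3 (0.89), and by *Mmp8* with DESeq2 (0.54). In GMPs against CLPs, *Lcn2* gained one with no filter (0.57). *Cd177* gained one there with upper quartile scaling (-0.95), O-WT alone (-1.14), no scaling (-0.99) and without CLP O-NR 3 (-0.78). Values that had not passed the test changed sign for *Ltf* in GMPs against HSCs (-0.04 with upper quartile scaling, -0.18 without scaling, -0.17 to 0.27 leaving out a library), *Camp* and *Cd177* there (-0.01 and -0.05 without scaling), *Lcn2* in GMPs against CLPs (-0.38 with the covariate, -0.03 without scaling), and *Chil3* between O-NR and O-WT CLPs (0.08 in 1 model, 0.03 with DESeq2 and filterByExpr, 0.05 with no filter, -0.47 to 0.40 leaving out a library). The cause was not tested. The median over the 10 genes in cohort 1 ranged from 0.21 to 0.78 for O-NR-RC against O-NR, -0.08 to 0.72 for O-NR-RC against O-WT and -0.37 to 0.07 for O-NR against O-WT. Depth limits *Retnlg*, with 27 reads over the 8 HSC libraries of cohort 2, while the other genes held 86 (*S100a9*) to 448 (*Ltf*).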
